A study of Mus musculus with 16 samples.

Results

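The Schlafen genes of the mouse were followed in macrophages given interferon-gamma, either for the first time or after an earlier exposure. The genes were taken by name (Slfn1, Slfn2, Slfn3, Slfn4, Slfn5, Slfn8 and Slfn9), through every array feature whose platform annotation holds 1 of these symbols. Each of the 7 genes had 1 feature, and none of the 7 features held another symbol as well, among 23410 features with a gene symbol and 35557 in all. Bone-marrow derived macrophages of mice with an HA-tagged histone H3.3 knock-in were grown in medium with L-cell conditioned medium and serum, so every group carries the tagged histone and no untagged cells stand beside them. Naive macrophages were sampled at 0 h (4 arrays), 3 h (2 arrays) and 6 h (2 arrays) of interferon-gamma, a cytokine made by T cells and NK cells that activates macrophages. The remaining 8 arrays hold macrophages called pretreated, whose sample titles carry a token for earlier interferon, again with 4 arrays at 0 h, 2 at 3 h and 2 at 6 h. Age, sex and number of mice, and the dose and length of either exposure are not stated in the labels. Untreated cells sampled at 3 or 6 h were not analysed here, so interferon-gamma and time in culture cannot be told apart.

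Schlafen proteins take their name from the German word for sleep, after the growth arrest that the first one caused in developing T cells. The family is induced by interferons and falls into short members (Slfn1 and Slfn2), intermediate members (Slfn3 and Slfn4) and long members (Slfn5, Slfn8 and Slfn9), the last with a helicase-like region that the others lack. Several members bind or cut transfer RNA and so limit translation, of viral RNA among others, and in mice the loss of Slfn2 function takes T cells and monocytes out of their resting state.

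The arrays were 1-colour Affymetrix mouse gene arrays, and all values are log2 intensities as deposited. They came in 2 sets of 8, read from the numbering in the titles. Set 1 holds the 6 h arrays with replicates 1 and 2 of both 0 h groups, and set 2 the 3 h arrays with replicates 3 and 4. Array medians lay between 7.151 and 7.226 in set 1 and between 6.886 and 6.997 in set 2, so a level is compared only within a set. The macrophage identity of the samples was checked with 13 markers, whose mean log2 intensity lay between 12.08 and 12.53 on the 16 arrays. Csf1r averaged 13.32 and Adgre1 13.24, and the lowest of the 13 was Cd163 at 6.98. Of the markers of other cells, 3 of 8 for T cells, 4 of 6 for B cells, 5 of 6 for NK cells and 5 of 10 for neutrophils and progenitors averaged under 6.5, the limit below which a feature is called dim here, as did 4 of 8 fibroblast markers and 2 of 9 dendritic cell markers. Ncr1 of NK cells averaged 4.64, Cd3g of T cells 5.10 and S100a8 of neutrophils 5.55. Others were brighter, among them Cd28 of T cells (10.11) and Bst2 of dendritic cells (11.49). Cd79b of B cells averaged 8.83 and Acta2 of the fibroblast list 8.04.

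Naive macrophages raised 6 of the 7 Schlafen genes at 3 h, and 6 of 7 at 6 h. A feature was called changed at a Benjamini-Hochberg adjusted p under 0.05 in a limma fit over all 23410 features, and 3.44% of them were called higher at 3 h and 7.40% at 6 h. Slfn4 was the exception at both times. Across settings that leave out no single array, 5 to 7 genes were called at 3 h and 5 to 6 at 6 h. The calls of Slfn3 and Slfn9 at 3 h, and that of Slfn3 at 6 h, depended on single arrays, as described below. The median log2 change of the 7 genes was 1.14 at 3 h and 1.23 at 6 h, where the medians of all features were -0.00 and -0.02. Each 3 h or 6 h group stands against the naive 0 h arrays of its own set, 2 arrays against 2. At 3 h 6 of the 7 genes, all but Slfn4, were higher on both arrays than on both 0 h arrays, against 22.9% of features. At 6 h all 7 genes were, against 24.9% of features. Nothing in the labels says whether arrays of a group came from separate mice or cultures, so the p-values measure the spread between arrays, which may be technical. In RNA from whole cultures, more cells that express a gene and more RNA per cell cannot be told apart.

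**Figure D1:**
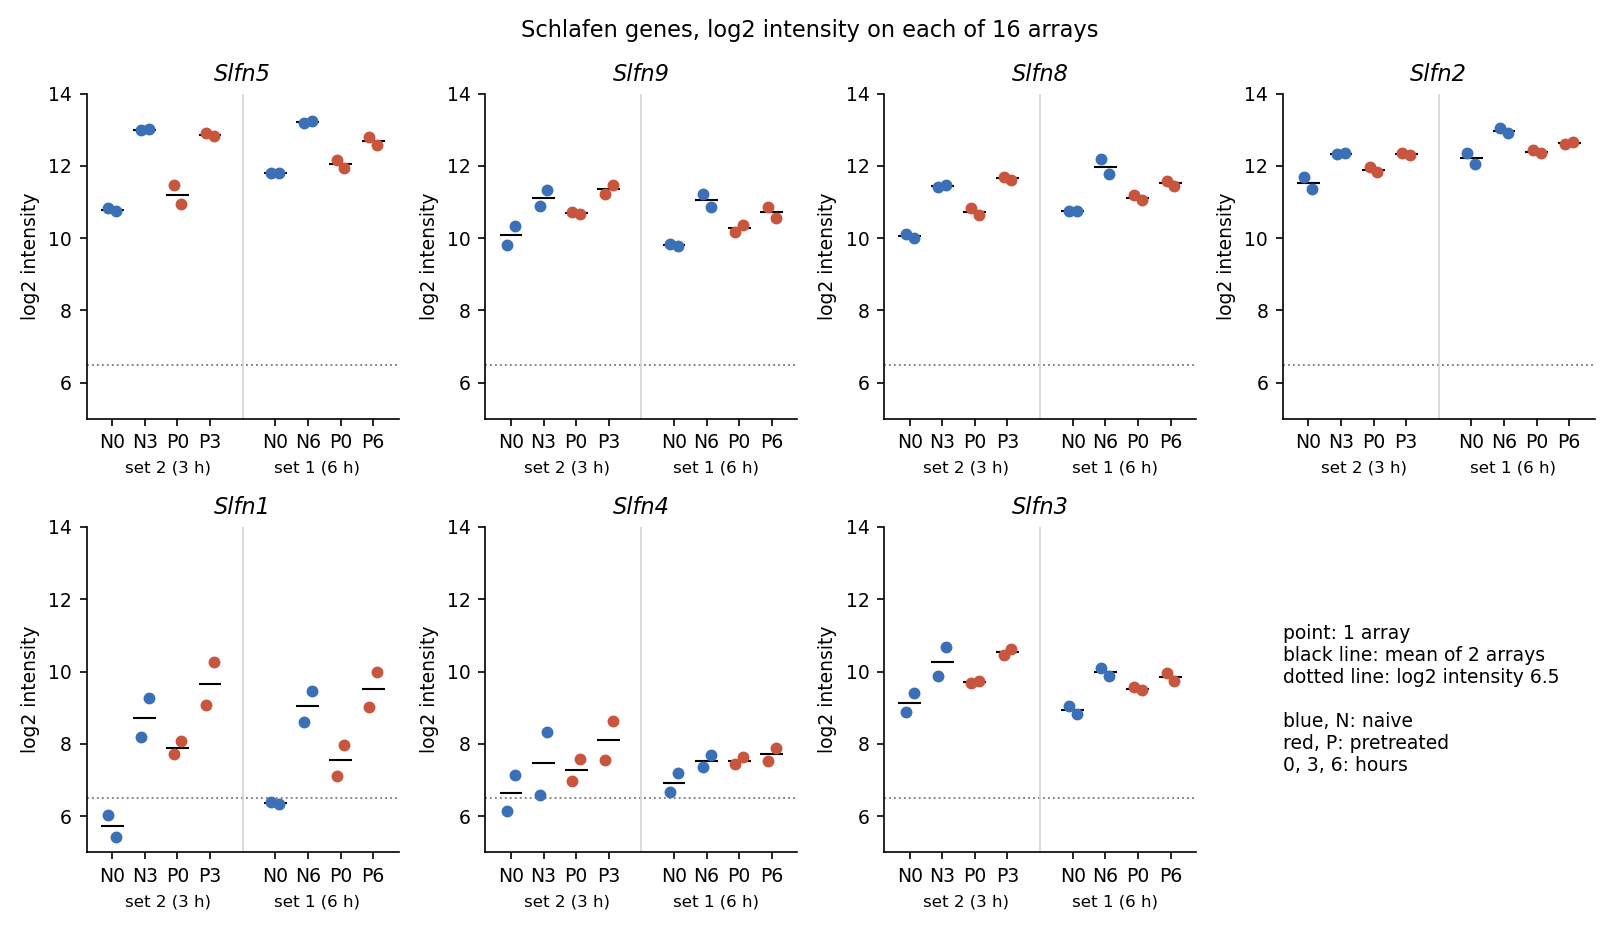
Log2 intensity of each Schlafen gene (vertical axis) on each of 16 arrays, with set 2 (0 h and 3 h) on the left of a panel and set 1 (0 h and 6 h) on the right. Points are arrays, black lines are means of 2 arrays, blue is naive and red is pretreated, and the naive 0 h arrays of Slfn1 lie below the dotted limit of 6.5.

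The long members are described first, together with the stretch of their promoters that holds a match to the core of the interferon-stimulated response element, a motif bound by complexes that hold IRF proteins. The core was searched as GAAANNGAAA on both strands of RefSeq promoter windows of 300 bases, from 250 bases before a gene's start to 50 bases after it, on mouse build GRCm38.p6. All 7 genes have a window, and Slfn5, Slfn8 and Slfn9 were the 3 with a match, against 3.99% of the 27025 genes with a window. The stretches run 5′ to 3′ on the strand of the gene, with 30 bases on either side of the match, which is in capitals.
Slfn5: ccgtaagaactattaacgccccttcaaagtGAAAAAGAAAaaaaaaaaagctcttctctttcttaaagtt
Slfn8: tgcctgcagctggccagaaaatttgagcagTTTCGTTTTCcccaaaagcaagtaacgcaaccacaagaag
Slfn9: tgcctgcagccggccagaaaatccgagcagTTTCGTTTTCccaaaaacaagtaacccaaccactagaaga
The Slfn5 stretch is chr11:82951917-82951986 on the plus strand, with the match at -155 to -146 from the start. The Slfn8 stretch is chr11:83020819-83020888 and the Slfn9 stretch chr11:82991836-82991905, both on the minus strand, with the matches at -48 to -39 and -45 to -36. A second RefSeq window of Slfn8 holds the same match at -136 to -127. In Slfn8 and Slfn9 the match lies on the strand opposite to the gene and has the same 10 letters in both. A match is a description of these letters and not a binding site.

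Slfn5 (feature 10379615), a long member with a helicase-like region, had the lowest adjusted p of the 7 genes in naive cells at both times. On the set 2 arrays its log2 intensity was 10.82 and 10.75 in naive cells at 0 h and 12.98 and 13.01 at 3 h. The 3 h arrays lay far above the 0 h arrays, with 0.07 or less between the arrays of either pair. The log2 change was 2.21 ± 0.15 (SE), a 4.63-fold rise (limma, adjusted p = 2.47e-06). On set 1 the values were 11.81 and 11.79 at 0 h and 13.19 and 13.23 at 6 h. These groups did not overlap either, and the log2 change of 1.41 ± 0.15 was a 2.67-fold rise (adjusted p = 5.29e-05). With any 1 array left out, the log2 change stayed between 2.18 and 2.24 at 3 h and between 1.39 and 1.44 at 6 h.

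In pretreated cells Slfn5 stood at 11.47 and 10.93 at 0 h and at 12.90 and 12.83 at 3 h on set 2. The pretreated groups did not overlap, and Slfn5 rose by a log2 change of 1.66 ± 0.15, or 3.16-fold (adjusted p = 0.000148). At 6 h on set 1 the pretreated values were 12.80 and 12.57, against 12.16 and 11.93 at 0 h. All 6 h arrays were the higher ones, and the rise was 0.64 ± 0.15 on the log2 scale, or 1.56-fold (adjusted p = 0.0292). This last call was lost without replicate 2 of pretreated 0 h (log2 change 0.53, adjusted p = 0.187), without replicate 1 of pretreated 6 h (0.53, 0.261) and without replicate 2 of pretreated 6 h (0.76, 0.07), and when the arrays were quantile-normalized again (0.58, 0.073).

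Slfn8 (feature 10389143), a long member near Slfn9, gave 10.12 and 10.00 in naive cells at 0 h and 11.42 and 11.48 at 3 h on set 2. On set 1 it gave 10.74 and 10.74 at 0 h and 12.18 and 11.76 at 6 h. Neither time overlapped with its 0 h arrays. The log2 change was 1.38 ± 0.14 at 3 h (2.61-fold, adjusted p = 4.21e-05) and 1.23 ± 0.14 at 6 h (2.35-fold, adjusted p = 5.83e-05). Pretreated cells held 10.83 and 10.64 at 0 h and 11.69 and 11.61 at 3 h, a rise of 0.91 ± 0.14 (1.88-fold, adjusted p = 0.00292). At 6 h pretreated cells held 11.59 and 11.44, against 11.18 and 11.04 at 0 h. The arrays were again all higher at 6 h, but the change of 0.40 ± 0.14 did not pass the test (adjusted p = 0.14, 95% interval 0.10 to 0.70).

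Slfn9 (feature 10389134), the third long member, read 9.82 and 10.34 in naive cells at 0 h and 10.89 and 11.33 at 3 h on set 2. The higher 0 h array, replicate 4, stood about as far from replicate 3 as from the lower 3 h array. On set 1 the values were 9.83 and 9.79 at 0 h and 11.23 and 10.86 at 6 h. Slfn9 rose by 1.02 ± 0.20 at 3 h (2.03-fold, adjusted p = 0.00829) and by 1.24 ± 0.20 at 6 h (2.36-fold, adjusted p = 0.00087). The 3 h call was lost without replicate 3 of naive 0 h (log2 change 0.76, adjusted p = 0.0938) and without replicate 2 of naive 3 h (0.80, 0.111). Pretreated values were 10.71 and 10.68 at 0 h, 11.23 and 11.46 at 3 h, and on set 1 10.18 and 10.37 at 0 h and 10.86 and 10.56 at 6 h. No pretreated 3 h or 6 h array overlapped with 0 h, yet the changes of 0.65 ± 0.20 at 3 h (adjusted p = 0.132, 95% interval 0.22 to 1.08) and 0.44 ± 0.20 at 6 h (adjusted p = 0.336, 0.00 to 0.87) did not pass.

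The short and intermediate members have no match to the response element core in their windows. What these 4 windows share is a word of 9 bases, ACTTCCTGG, on the strand of the gene, which was found by comparing the 7 windows with each other and so was chosen after the sequences were seen. Counted on either strand, and so more loosely than here, it occurs in the windows of 240 of 27025 genes (0.888%). The stretches below, from RefSeq on GRCm38.p6, have the word in capitals and 30 bases on either side.
Slfn1: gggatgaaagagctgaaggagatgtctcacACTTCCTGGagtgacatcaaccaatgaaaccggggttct
Slfn2: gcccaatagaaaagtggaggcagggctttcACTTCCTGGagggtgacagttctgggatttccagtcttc
Slfn3: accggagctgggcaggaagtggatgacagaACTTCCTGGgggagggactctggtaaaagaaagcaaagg
Slfn4: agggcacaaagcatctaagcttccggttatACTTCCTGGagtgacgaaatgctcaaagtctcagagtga
All 4 lie on the plus strand, Slfn1 at chr11:83116716-83116784, Slfn2 at chr11:83065027-83065095, Slfn3 at chr11:83191258-83191326 and Slfn4 at chr11:83175083-83175151. The word starts at -74 from the start of Slfn1, -55 of Slfn2, -42 of Slfn3 and -73 of Slfn4. In Slfn2 it overlaps a match to the composite of an ETS and an IRF half-site, searched as GGAANNGAAA on both strands, at -59 to -50, which no other of the 7 windows holds and 3.16% of all genes do.

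Slfn1 (feature 10379633), the short member whose effect on growth gave the family its name, was the one gene of the 7 with all 4 naive 0 h arrays under the dim limit. Its log2 intensity there was 6.02 and 5.43 on set 2 and 6.38 and 6.33 on set 1. It reached 8.20 and 9.26 at 3 h and 8.6 and 9.47 at 6 h. The groups did not overlap at either time, although the arrays at 3 h and at 6 h lay about 1 log2 unit apart. Slfn1 rose by 3.01 ± 0.48 at 3 h (adjusted p = 0.00228) and by 2.68 ± 0.48 at 6 h (adjusted p = 0.00198). These were the highest log2 changes among the 7 genes, but since the 0 h level is dim their size is uncertain and no fold is given.

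Pretreated cells held Slfn1 at 7.71 and 8.09 at 0 h and at 9.08 and 10.26 at 3 h on set 2. On set 1 they held it at 7.12 and 7.98 at 0 h and at 9.01 and 10.00 at 6 h. At both times the pretreated groups were apart. The change of 1.77 ± 0.48 at 3 h did not pass (adjusted p = 0.0848, 95% interval 0.72 to 2.82), and at 6 h Slfn1 rose by 1.96 ± 0.48, or 3.89-fold (adjusted p = 0.0345). That call was lost without replicate 1 of pretreated 0 h (log2 change 1.53) and without replicate 2 of pretreated 6 h (1.46). Leaving out replicate 1 or replicate 2 of naive 0 h, which this comparison does not use, lost it too. There the change stayed at 1.96, and only the spread shared by all groups and the adjusted p moved. The call was also lost with all features of the table (adjusted p = 0.0616), with eBayes set to trend and robust (0.0681) and with array weights (0.0742).

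Slfn2 (feature 10379630), the short member tied to the resting state of T cells and monocytes, was bright in all groups and changed least among the called genes. Naive values were 11.68 and 11.37 at 0 h and 12.32 and 12.36 at 3 h on set 2, and 12.36 and 12.05 at 0 h and 13.04 and 12.91 at 6 h on set 1. Neither time overlapped with 0 h. Slfn2 rose 1.76-fold at 3 h (log2 change 0.81 ± 0.13, adjusted p = 0.00232) and 1.70-fold at 6 h (0.77 ± 0.13, adjusted p = 0.00135). In pretreated cells it read 11.96 and 11.82 at 0 h and 12.36 and 12.30 at 3 h, then 12.43 and 12.35 at 0 h and 12.60 and 12.67 at 6 h on the other set. Groups were apart at both times, with changes of 0.44 ± 0.13 (adjusted p = 0.121, 95% interval 0.15 to 0.73) and 0.25 ± 0.13 (adjusted p = 0.467, -0.04 to 0.53) that did not pass.

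Slfn3 (feature 10379646), an intermediate member, read 8.87 and 9.40 in naive cells at 0 h and 9.87 and 10.67 at 3 h on set 2, and 9.05 and 8.82 at 0 h and 10.10 and 9.88 at 6 h on set 1. The naive groups were apart at both times. Slfn3 rose 2.20-fold at 3 h (log2 change 1.14 ± 0.23, adjusted p = 0.0105) and 2.07-fold at 6 h (1.05 ± 0.23, adjusted p = 0.00656). The 3 h call was lost without replicate 3 of naive 0 h (0.87, adjusted p = 0.114) and without replicate 2 of naive 3 h (0.74, 0.108), and in a fit of array set 2 alone (1.14, 0.0577). The 6 h call was lost without replicate 2 of naive 0 h (0.94, adjusted p = 0.0634) and without replicate 1 of naive 6 h (0.94, 0.0638). Pretreated cells held 9.68 and 9.75 at 0 h and 10.46 and 10.63 at 3 h, then 9.56 and 9.49 at 0 h and 9.96 and 9.75 at 6 h. The groups were apart, with changes of 0.83 ± 0.23 (adjusted p = 0.0882, 95% interval 0.33 to 1.33) and 0.33 ± 0.23 (adjusted p = 0.67, -0.17 to 0.82) that did not pass. The pretreated change at 3 h passed without replicate 1 or replicate 2 of naive 3 h, which this comparison does not use. There the change stayed at 0.83, and only the spread shared by all groups and the adjusted p moved.

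Slfn4 (feature 10379636), the other intermediate member, best known from cells of the myeloid lineage, had the widest spread between arrays of the family. Naive arrays read 6.14 and 7.14 at 0 h and 6.58 and 8.34 at 3 h on set 2, so that the groups overlapped. On set 1 they read 6.66 and 7.19 at 0 h and 7.36 and 7.69 at 6 h, with no overlap. The log2 changes of 0.83 ± 0.51 (adjusted p = 0.557, 95% interval -0.29 to 1.94) and 0.61 ± 0.51 (adjusted p = 0.575, -0.51 to 1.72) did not pass. The intervals include both no change and a rise as large as that of Slfn3. Pretreated arrays read 6.96 and 7.58 at 0 h and 7.56 and 8.63 at 3 h, and on set 1 7.44 and 7.63 at 0 h and 7.53 and 7.90 at 6 h. Both pairs of groups overlapped, with changes of 0.82 ± 0.51 (adjusted p = 0.568) and 0.18 ± 0.51 (adjusted p = 0.977). The calls of Slfn4 depended on whether the half-set, the arrays at positions 1 to 4 or 5 to 8 of a set, entered the fit as a block. With that block Slfn4 passed at 3 h in naive cells (adjusted p = 0.0275) and in pretreated cells (adjusted p = 0.0395), and at 6 h it passed in neither.

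**Figure D2:**
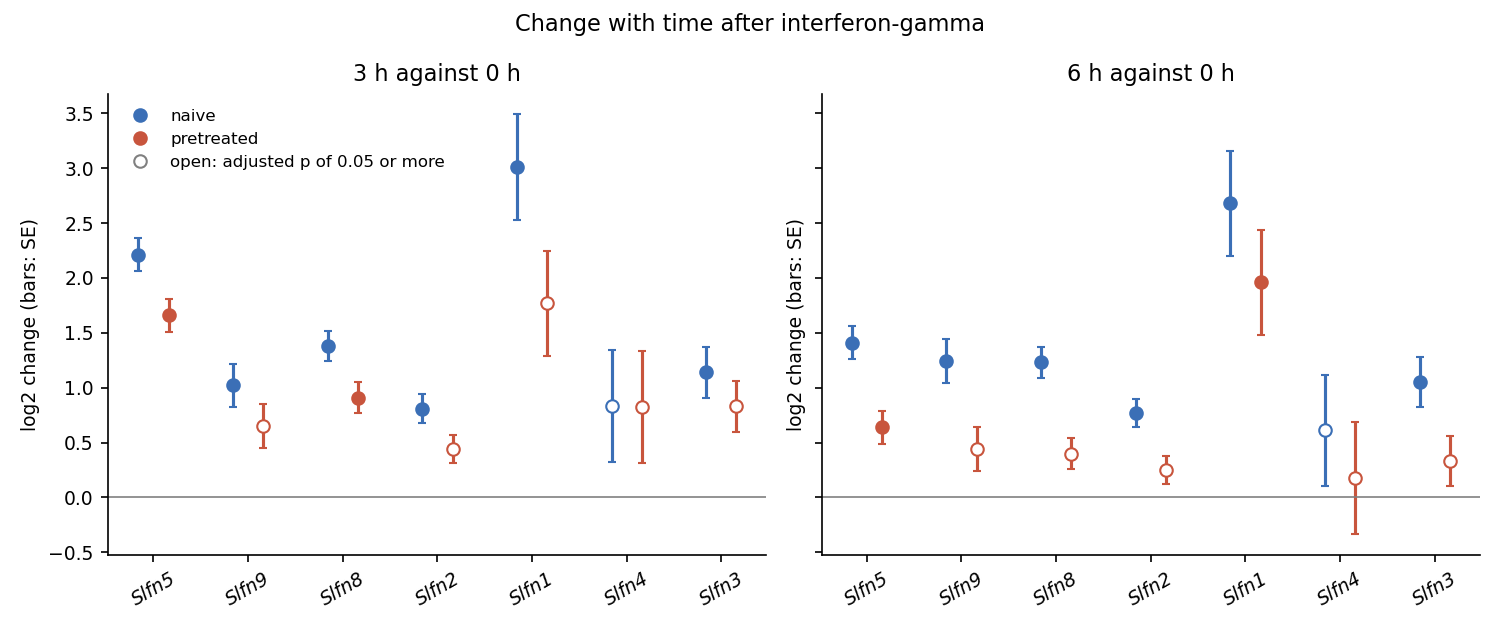
Log2 change against 0 h of the same set (vertical axis, bars are SE) for each Schlafen gene at 3 h and at 6 h, in naive cells (blue) and pretreated cells (red), with open points where the adjusted p was 0.05 or more. All 7 naive points and all 7 pretreated points lie above 0 at both times, and the naive point lies above the pretreated one for each gene, by 0.00 (Slfn4) to 1.24 (Slfn1) at 3 h and by 0.43 to 0.83 at 6 h.

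Pretreated macrophages thus raised 2 of the 7 genes at 3 h (Slfn5 and Slfn8) and 2 of 7 at 6 h (Slfn5 and Slfn1), where 1.82% and 2.86% of all features were called higher. The count at 3 h depended on the design of the fit. It was 6 of 7 with an additive set term, where Slfn4 alone did not pass, and 6 of 7 with the half-set as a block, where Slfn2 alone did not pass. The same 2 fits called 6 and 7 of the 7 genes in naive cells at 3 h. The median log2 change of the 7 genes was 0.83 at 3 h and 0.40 at 6 h. At an unadjusted p under 0.05, 6 of 7 genes were higher at 3 h and 4 of 7 at 6 h, against 1338 and 1658 of all 23410 features. At each time 6 of the 7 genes were higher on both stimulated arrays than on both 0 h arrays, with Slfn4 the exception, against 14.5% of features at 3 h and 16.7% at 6 h. At 6 h the pretreated log2 change was 45.6% of the naive one for Slfn5, 35.2% for Slfn9, 32.5% for Slfn8, 31.9% for Slfn2 and 31.0% for Slfn3. At 3 h the shares of these 5 genes were higher, from 54.0% for Slfn2 to 75.0% for Slfn5. No share is given for Slfn1, whose naive 0 h level is dim, or for Slfn4, whose naive changes did not pass. Of the 5 genes with a share, only Slfn5 and Slfn8 at 3 h and Slfn5 at 6 h had a pretreated change that passed. The other shares rest on pretreated changes that did not pass, and no share has an error here. A share depends on the 0 h level as well as on the level reached. At 0 h all 7 genes read higher in pretreated cells, 2 of them called, as given below.

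Whether the pretreated response differed from the naive one was tested as a difference of changes in the same fit. At 3 h the differences, pretreated minus naive, were -0.55 ± 0.22 for Slfn5, -0.47 ± 0.19 for Slfn8, -0.37 ± 0.28 for Slfn9, -1.24 ± 0.68 for Slfn1, -0.37 ± 0.19 for Slfn2, -0.31 ± 0.32 for Slfn3 and -0.00 ± 0.72 for Slfn4. None of the 7 passed in limma, and 0.150% of all features were called lower. At an unadjusted p under 0.05, 2 of 7 genes and 313 of 23410 features were lower. At 6 h the differences were -0.77 for Slfn5 (95% interval -1.25 to -0.29, adjusted p = 0.23), -0.83 for Slfn8 (-1.25 to -0.41, adjusted p = 0.141) and -0.80 for Slfn9 (-1.41 to -0.19, adjusted p = 0.355). For the others they were -0.52 for Slfn2 (-0.93 to -0.12, adjusted p = 0.362), -0.72 for Slfn3 (-1.43 to -0.02, adjusted p = 0.517), -0.72 for Slfn1 (-2.21 to 0.77) and -0.43 for Slfn4 (-2.0 to 1.15). Again none passed, and 0.145% of all features were called lower. At an unadjusted p under 0.05, 5 of 7 genes and 928 of 23410 features were lower. All 7 differences were below 0 at both times, against 50.9% of all features at 3 h and 51.0% at 6 h. The 7 genes were read on the same arrays and vary together, so their signs do not count as 7 independent results. For Slfn4 at 3 h the difference of -0.00 became 0.01 with an additive set term. Slfn8 alone passed at 6 h when 1 array was left out, without replicate 2 of naive 6 h (-1.04, adjusted p = 0.0253). These differences use the same 0 h arrays as the changes above and add no independent samples to them.

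Before restimulation the pretreated cells already held more Schlafen RNA for 2 of the 7 genes, Slfn1 and Slfn8, in a comparison of 4 arrays with 4 in which 0.970% of all features were called higher. Slfn1 was 1.69 ± 0.34 higher on the log2 scale (adjusted p = 0.0333), with pretreated arrays between 7.12 and 8.09 and naive arrays between 5.43 and 6.38, so no array overlapped in either set. As the naive level is dim, the size of this difference, and of the differences of changes of Slfn1, is uncertain. Within the sets its difference was 1.19 (adjusted p = 0.654) and 2.18 (adjusted p = 0.167), each from 4 arrays alone. Slfn8 was 0.52 ± 0.10 higher, or 1.44-fold (adjusted p = 0.017), with 0.38 (adjusted p = 0.789) on set 1 and 0.67 (adjusted p = 0.0839) on set 2. The count was 5 of 7 with the half-set as a block, where Slfn3 (adjusted p = 0.0137), Slfn4 (0.0419) and Slfn9 (0.024) passed as well. The call of Slfn1 was lost with all features of the table (adjusted p = 0.0744), with quantile normalization repeated (0.0537), with eBayes set to trend and robust (0.0806) and with array weights (0.088). Neither call was stable to the loss of single arrays. That of Slfn1 was lost without any 1 of the 4 naive 0 h arrays or of replicates 2, 3 and 4 of pretreated 0 h (adjusted p up to 0.143), and that of Slfn8 without replicate 1, 2 or 4 of naive 0 h or replicate 1 or 3 of pretreated 0 h (adjusted p up to 0.0798).

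The other genes were also higher at 0 h without passing the test. Slfn3 differed by 0.58 (95% interval 0.23 to 0.94, adjusted p = 0.168), Slfn9 by 0.54 (0.23 to 0.84, adjusted p = 0.128), Slfn5 by 0.33 (0.10 to 0.57, adjusted p = 0.311) and Slfn2 by 0.27 (0.07 to 0.47, adjusted p = 0.343). Slfn4 differed by 0.62, with an interval that spans 0 (-0.17 to 1.41, adjusted p = 0.786). Pretreated arrays lay above all naive arrays for 6 of the 7 genes in set 1, where Slfn2 overlapped, and for 6 of 7 in set 2, where Slfn4 overlapped, against 15.3% and 11.8% of features. Slfn5 passed without replicate 4 of pretreated 0 h (log2 difference 0.47) and Slfn9 without replicate 4 of naive 0 h (0.67). Slfn3 passed without replicate 1 or 2 of naive 3 h, which this comparison does not use, with its difference still at 0.58.

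Under stimulation the levels of pretreated and naive cells were compared directly. At 3 h none of the 7 passed in limma in either direction, none had an unadjusted p under 0.05, and 0.00854% of all features were called higher and 0.00427% lower. The log2 differences, pretreated minus naive, ran from -0.13 (Slfn5, 95% interval -0.47 to 0.20) to 0.94 (Slfn1, -0.11 to 1.99). Slfn2 was nearly level, at 12.32 and 12.36 in the naive arrays and 12.36 and 12.30 in the pretreated ones, a difference of -0.01 (-0.30 to 0.28).

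At 6 h again no gene passed in limma, and 0.402% of all features were called higher and 0.261% lower. At an unadjusted p under 0.05, 3 of 7 genes and 1171 of 23410 features were lower. Pretreated arrays lay below both naive arrays for Slfn2, Slfn5, Slfn8 and Slfn9, against 19.1% of features, and overlapped with them for Slfn1, Slfn3 and Slfn4. Slfn5 differed by -0.52 (95% interval -0.86 to -0.19, adjusted p = 0.161), Slfn8 by -0.45 (-0.75 to -0.16, adjusted p = 0.166), Slfn2 by -0.34 (-0.63 to -0.06, adjusted p = 0.295) and Slfn9 by -0.34 (-0.77 to 0.10, adjusted p = 0.608). Slfn8 passed without replicate 2 of naive 6 h (-0.67, adjusted p = 0.0349). Slfn1 was 0.47 higher in pretreated cells, with an interval of -0.58 to 1.52. The order of group means on set 1 was thus naive 0 h, pretreated 0 h, pretreated 6 h and naive 6 h for Slfn5, Slfn8, Slfn9, Slfn2 and Slfn3, and naive 0 h, pretreated 0 h, naive 6 h and pretreated 6 h for Slfn1. For Slfn3 the last step was small, at -0.14 for pretreated minus naive at 6 h (95% interval -0.63 to 0.36). Slfn4 had neither order, with means of 6.92 at naive 0 h, 7.53 at naive 6 h, 7.54 at pretreated 0 h and 7.72 at pretreated 6 h.

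**Figure D3:**
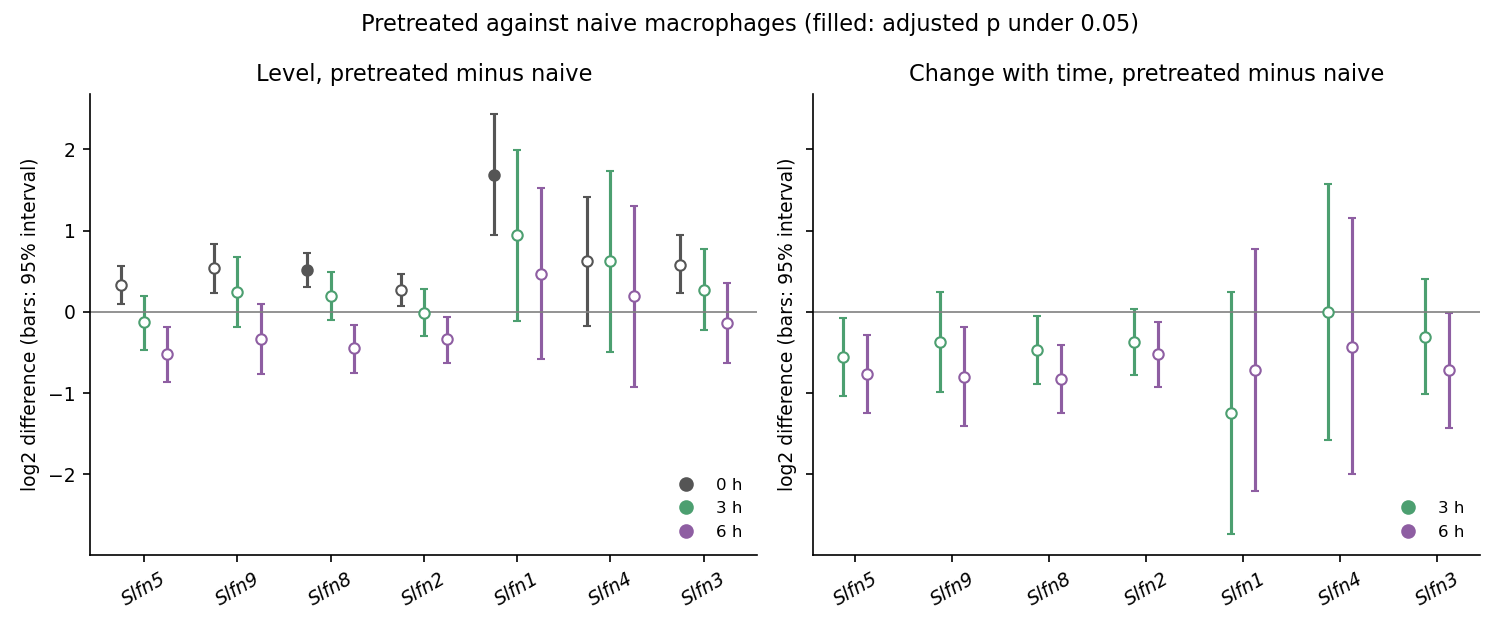
Left, log2 difference in level between pretreated and naive cells at 0, 3 and 6 h (vertical axis, bars are 95% intervals); right, the difference between their changes with time at 3 h and 6 h, for each Schlafen gene. Filled points (Slfn1 and Slfn8 at 0 h) had an adjusted p under 0.05, and all 7 points at 0 h lie above 0 while 5 of 7 at 6 h lie below it.

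The 6 h and 3 h changes come from different array sets, so that time and set cannot be told apart. None of the 7 genes passed in limma for the difference between the naive changes, 6 h minus 3 h, with 1.65% of all features called in either direction. At an unadjusted p under 0.05 it was 1 of 7 genes and 3033 of 23410 features. That gene was Slfn5, whose change was 0.80 smaller at 6 h (log2 difference -0.80, 95% interval -1.27 to -0.32, adjusted p = 0.105). It passed without replicate 3 or replicate 4 of pretreated 0 h, which this comparison does not use, with its difference still at -0.80. In pretreated cells none passed either, with 2 of 7 at an unadjusted p under 0.05, and 0% of all features were called in either direction (0 of 23410 by limma, 1670 at an unadjusted p under 0.05). Slfn5 again had the largest difference among the 7, at -1.01 (-1.49 to -0.54, adjusted p = 0.14).

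The 7 genes lie side by side on chromosome 11, in the order Slfn5, Slfn9, Slfn8, Slfn2, Slfn1, Slfn4 and Slfn3 in the RefSeq gene table of GRCm38.p6, with the pseudogene Slfn10-ps between Slfn8 and Slfn2. Slfn10-ps rose in naive cells, as most of the coding genes did. Its changes in pretreated cells, 0.50 ± 0.15 at 3 h (adjusted p = 0.116) and 0.24 ± 0.15 at 6 h (adjusted p = 0.573), did not pass in limma. In naive cells its values were 9.51 and 9.67 at 0 h and 10.25 and 10.43 at 3 h, and 10.25 and 9.87 at 0 h and 11.00 and 10.70 at 6 h. There Slfn10-ps rose by 0.76 ± 0.15 (adjusted p = 0.00859) and 0.79 ± 0.15 (adjusted p = 0.00248). Slfn5os, a transcript named as the opposite strand of Slfn5, rose by 0.54 ± 0.11 at 3 h (adjusted p = 0.0121) and 0.50 ± 0.11 at 6 h (adjusted p = 0.00726), and in pretreated cells by 0.73 ± 0.11 at 3 h (adjusted p = 0.00305), from levels between 6.08 and 6.78 that reach below the dim limit. The change of Slfn5os in pretreated cells at 6 h, 0.06 ± 0.11, did not pass in limma (adjusted p = 0.953). Slfnl1, a Schlafen-like gene outside the cluster, changed by 0.02 ± 0.12 at 3 h and 0.03 ± 0.12 at 6 h in naive cells. Whether probes of the close relatives in this cluster also bind each other's RNA was not tested.

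Of the 10 protein-coding genes on each side of the cluster 18 have a feature. In naive cells none of the 18 passed in limma at 3 h, where the chemokine gene Ccl5 changed by 1.44 ± 0.40 (adjusted p = 0.0625), and 2 passed at 6 h, Heatr9 (1.03 ± 0.30, adjusted p = 0.0327) and Ccl5 (2.80 ± 0.40, adjusted p = 0.000377). Their median log2 change was 0.03 at 3 h and 0.07 at 6 h. Heatr9 and Ccl5 are the outermost of the 10 on one side. At 0 h Ccl5 was 2.64 ± 0.28 higher in pretreated cells (adjusted p = 0.000239), and in the pretreated changes at 3 h and 6 h none of the 18 was called.

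**Figure D4:**
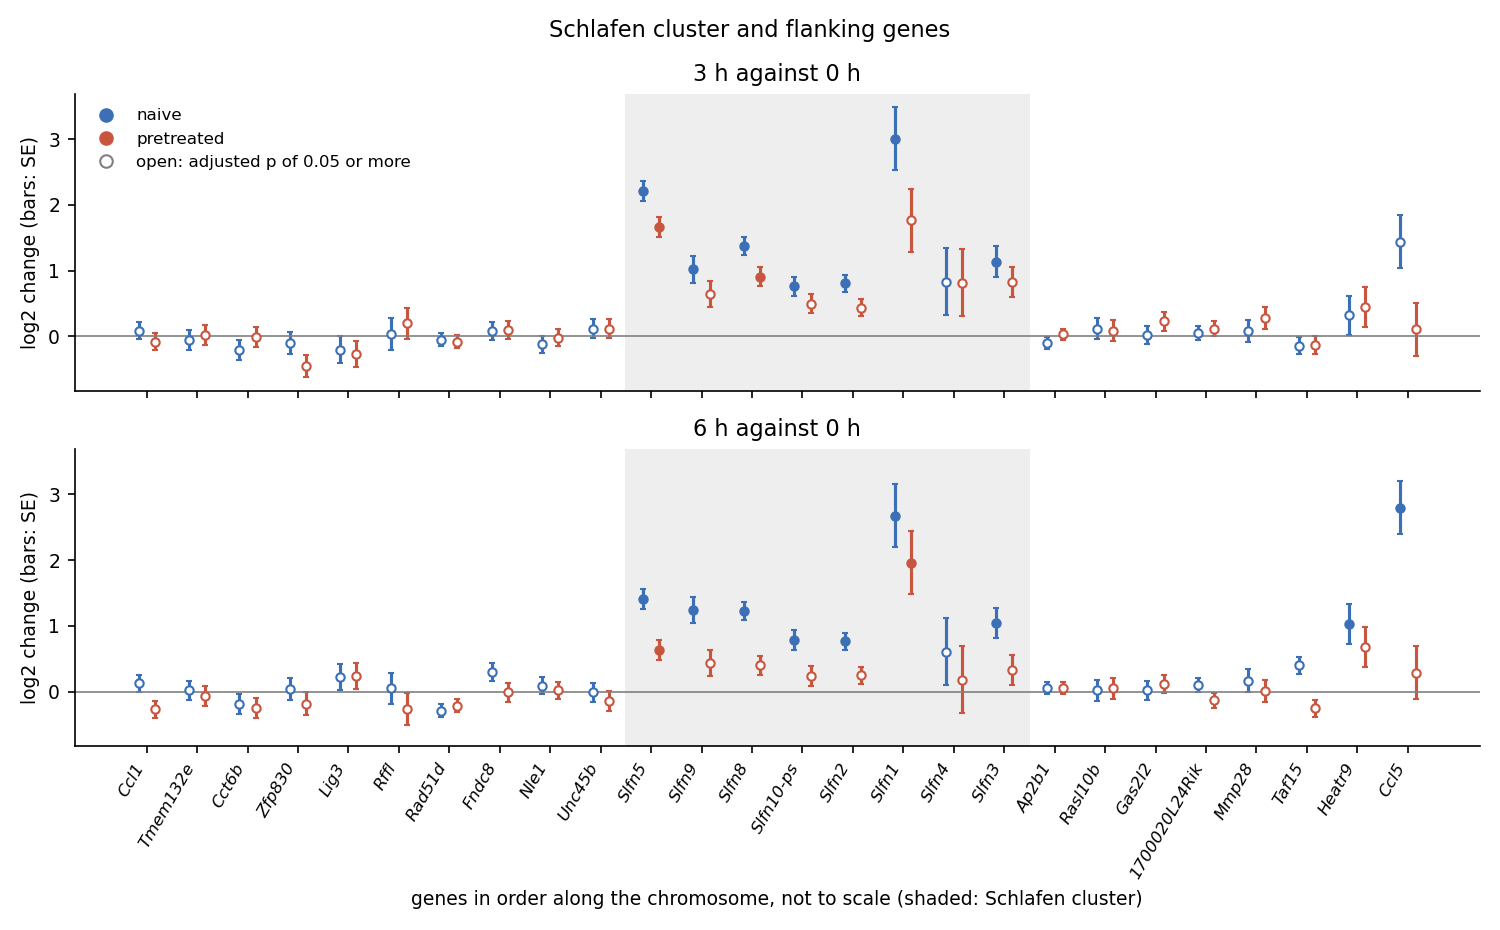
Log2 change against 0 h (vertical axis, bars are SE) of the Schlafen genes, the pseudogene Slfn10-ps and 18 flanking genes in their order along the chromosome, at 3 h (top) and 6 h (bottom), in naive (blue) and pretreated (red) cells, with open points where the adjusted p was 0.05 or more. The shaded cluster holds 7 filled naive points at each time, and outside it only Heatr9 and Ccl5 at 6 h are filled.

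Likeness over the 16 arrays was measured as Pearson's r after the mean of its array set was taken from each value, among 14344 features that are not dim and have 1 symbol. It is a description, since all points share the same stimulated and unstimulated arrays. Slfn5 was most like Ifi203 (r = 0.982), an interferon-inducible gene of the p200 family, then Daxx (0.977) and Parp14 (0.974). Slfn8 was most like Ifih1 (0.983), the sensor of double-stranded RNA also called MDA5, and Slfn9 like Ccdc86 (0.982), Dcp2 (0.974), the enzyme that removes messenger RNA caps, and Ifih1 (0.972). Slfn3 was most like Usp18 (0.969), which removes ISG15 from proteins. Slfn2 was most like Casp4 (0.975) and Cd69 (0.966), Slfn1 like 9330175E14Rik (0.970) and Tmem229b (0.966), and Slfn4 like Ly86 (0.915). Among the 7 genes themselves r ran from 0.441 (Slfn2 and Slfn4) to 0.966 (Slfn3 and Slfn9). Slfn4 had the lowest values with each of the other genes, from 0.441 to 0.792.

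The Schlafen genes can be set beside lists of related genes. Of 29 measured antiviral genes induced by type I interferon, 25 rose in naive cells at 3 h and 26 at 6 h, with median log2 changes of 1.60 and 1.30, and 13 and 12 rose in pretreated cells. At 0 h 24 of the 29 were higher in pretreated cells (median 0.85), against 2 of the 7 Schlafen genes (median 0.54) and 0.970% of all features. The Schlafen count depended on the setting, from 0 to 5 where no single array was left out. All 7 differences were positive, and at an unadjusted p under 0.05 in limma 6 of 7 genes and 905 of 23410 features were higher. Of 15 measured factors that restrict viral RNA or translation, 10 rose at 3 h and 9 at 6 h in naive cells, among them the helicase gene Ddx60 (1.98 ± 0.24 at 3 h, adjusted p = 0.000266) and Eif2ak2 (1.43 ± 0.14 at 3 h, adjusted p = 5e-05), which encodes the kinase PKR that halts translation. In pretreated cells 8 and 3 of the 15 rose, and 2 were higher at 0 h. Of 20 measured genes of the interferon-gamma receptor, JAK-STAT and IRF pathway, 13 rose and 2 fell in naive cells at 3 h, and 15 rose at 6 h. Irf1, a transcription factor that acts on interferon response elements, was up by 2.93 ± 0.15 at 3 h (adjusted p = 1.73e-07). In pretreated cells 7 of the 20 rose and 1 fell at 3 h, and 10 rose and 1 fell at 6 h. At 0 h 5 of the 20 were higher in pretreated cells (median 0.21).

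Because the family is named for growth arrest, cell cycle genes were listed too. Of 21 measured cyclin and proliferation genes, 2 fell in naive cells at 3 h, and at 6 h 13 fell and 2 rose (median log2 change -1.64). Of all 23410 features 442 were called lower at 3 h and 2320 at 6 h. Bub1 fell by 2.82 ± 0.26 and Plk1 by 2.57 ± 0.15 at 6 h (adjusted p = 1.37e-05 and 4.46e-07), both genes of mitosis, while the cyclin gene Ccnd2 rose by 3.03 ± 0.57 (adjusted p = 0.00246). In pretreated cells 11 of the 21 fell at 6 h, where 605 of all features were called lower, and at 0 h none of the 21 differed by limma. Of 16 measured genes tied to the resting state, 9 fell and 2 rose in naive cells at 6 h, where Cdkn2c, an inhibitor of cell cycle kinases, fell by 1.40 ± 0.16 (adjusted p = 7.28e-05). Whether these changes are linked to those of the Schlafen genes was not tested.

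Among the markers of other cells, 3 of 9 dendritic cell markers also rose in naive cells at 6 h, Clec9a by 4.44 ± 0.39 (adjusted p = 1.03e-05), Xcr1 by 1.10 ± 0.28 (adjusted p = 0.0164) and Bst2, itself an interferon-induced gene, by 0.69 ± 0.21 (adjusted p = 0.0374). At 0 h Clec9a (1.67 ± 0.28, adjusted p = 0.00836) and Bst2 (0.72 ± 0.15, adjusted p = 0.0316) were higher in pretreated cells. The mean of the 9 markers lay between 6.70 and 8.05 over the 16 arrays, and that of the 8 T cell markers between 6.27 and 7.44. The part of other cells in the Schlafen values was not tested.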

How the data were processed

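RNA of 16 samples was biotin-labelled and hybridised to 1-colour Affymetrix arrays, per the labels. The values are log2 intensities as deposited by the authors. How background was corrected and arrays were normalized is not stated in the labels, and array medians and minima differ between the 2 array sets. Gene symbols came from the platform annotation (21789 features with 1 symbol, 1621 with several, 12147 with none).

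A limma fit (version 3.58.1, R 4.3.3) held 1 mean per group and array set (8 means; degrees of freedom 8 residual, 4.14 prior). Groups were contrasted inside a set only, and the 2 inner differences were averaged for 0 h. Benjamini-Hochberg adjustment ran over 23410 features. The number of arrays, 2 per group in a set, limits the precision. The fit was tested on simulated data. Alternatives were another feature set, a dim filter at 6.5, an additive set term, half-sets as a block, requantiling, centring, eBayes with trend and robust, array weights, each set alone, a 2-fold limit and each array left out, where a group left with 1 array takes its spread from the rest. Figures used Python 3.11.15 and matplotlib 3.10.9.

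The Schlafen genes and all lists were chosen with earlier results of these data known. All members are named, with up to 4 genes of a list by size of change, 10 flanking genes on each side and the 3 features most like each member; the text gives a part of these. Promoter sequences are from RefSeq (GRCm38.p6). Of 3 motifs searched in them, 1 is not reported here.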

Additional observations from a re-analysis of the deposited data

Results flagged for a closer look

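In naive cells at 0 h the highest array of Slfn9, replicate 4 in set 2, read 10.34 on the log2 scale, while the other 3 arrays read 9.83, 9.79 and 9.82. Its distance from the nearest other array takes up most of the range of the 4 arrays. The 4 arrays come from both sets, whose array medians differ, and within set 2 this array has 1 partner (9.82), so how often chance gives such a distance was not assessed. This array is 1 of the 2 against which the 3 h arrays of naive cells were compared.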

How the results depend on the processing

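Counts of Schlafen genes called in limma depended on the setting most where the main count was 2. In pretreated cells at 3 h the count was 6 with an additive set term and 6 with the half-set as a block, and 1 with a 2-fold limit. At 6 h it was 1 with all features of the table, requantiling, trend and robust, array weights or a 2-fold limit. For pretreated against naive cells at 0 h it was 5 with the half-set as a block, 1 with all features, requantiling, trend and robust, array weights or a 2-fold limit, and 0 with set 1 or set 2 alone. Where the main count was 0, array weights gave 1 for pretreated against naive cells at 6 h. The difference of the 6 h changes gave 2 with an additive term and 1 with the block. The naive changes, 6 h minus 3 h, gave 1 with an additive term, the block or array weights, and the pretreated ones gave 1 with an additive term. The cause was not tested.

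With 1 array left out, the counts ranged from 4 to 6 (naive 3 h), 5 to 6 (naive 6 h), 2 to 3 (pretreated 3 h), 0 to 2 (pretreated 6 h), 0 to 3 (0 h), 0 to 1 (pretreated against naive at 6 h, the difference of the 6 h changes, and the naive changes, 6 h minus 3 h) and 0 in the remaining 3. Signs turned only for values that passed no test in either setting. With an additive term the difference of the 3 h changes of Slfn4 became 0.01 (0.06 with requantiling), the naive difference, 6 h minus 3 h, became 0.17 for Slfn1 and 0.05 for Slfn2, and the pretreated one became -0.30 for Slfn1. With 1 array left out, Slfn4 ranged from -0.06 to 1.71 (naive 3 h), -0.01 to 0.36 (pretreated 6 h), -0.25 to 1.51 (pretreated against naive at 3 h) and -0.88 to 0.88 (difference of the 3 h changes). Also at 3 h, pretreated against naive, Slfn2 ranged from -0.04 to 0.02 and Slfn3 from -0.13 to 0.67, and the difference of the 3 h changes of Slfn3 from -0.71 to 0.09. Slfn1 ranged from -0.03 to 0.97 at 6 h, pretreated against naive. The naive changes, 6 h minus 3 h, ranged from -0.85 to 0.20 (Slfn1), -0.20 to 0.11 (Slfn2), -0.49 to 0.31 (Slfn3), -1.10 to 0.66 (Slfn4), -0.36 to 0.06 (Slfn8) and -0.05 to 0.47 (Slfn9), and the pretreated ones from -0.40 to 0.78 (Slfn1).

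Of 2072 values recomputed for single genes, 1963 kept their direction and side of the threshold, 43 lost a call, 30 gained one and 36 turned sign. The half-set block compares arrays at positions 1 to 4 of a set with positions 5 to 8. In each set the titles list the same groups in the same order at these 2 runs of positions. Differences between half-sets correlated by 0.067 to 0.675 in 12 pairs of groups, all positive, with 1 pair under 0.1. The main fit holds no half-set term, so its spread includes any difference between half-sets. Replicate numbers in the labels do not tie arrays of different groups, and whether half-sets are separate cultures is not stated.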

Other observations

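Slfn4, the gene with the widest spread, was higher on the array of the second half-set than on its partner in the first in 8 of 8 pairs, 1 pair for each group in each set. For naive cells the log2 differences were 0.53 and 1.0 in the 0 h pairs, 1.76 in the 3 h pair and 0.33 in the 6 h pair. For pretreated cells they were 0.19 and 0.62, then 1.07 and 0.37. Of all 23410 features 709 (3.03%) were higher in all 8 pairs and 919 (3.93%) lower. Slfn1 was higher on the second array in the 6 pairs other than naive 0 h, by 0.38 to 1.18. The mean of the 8 T cell markers was lower on the second array in all 8 pairs, by 0.08 to 0.53, as was that of the 9 dendritic cell markers, and their part in the Slfn4 values was not tested.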
